A study of Mus musculus with 8 samples.

Results

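Interferon-stimulated genes were followed in mouse osteoblast progenitor cultures treated with locamidazole (LAMZ), an aminoindazole derivative, or with its vehicle. The set comprised 42 genes that are commonly induced by interferons, chosen by symbol among the 51822 gene symbols of the expression tables, and all 42 were found. RNA sequencing was done on 8 libraries in 4 groups of 2: cells given DMSO (control) or 1 μmol·L−1 LAMZ and harvested at day 7, and the same pair of treatments at day 14. All cultures received osteogenic medium, that is, α-MEM with fetal bovine serum, ascorbic acid, dexamethasone and β-glycerophosphate. The sample labels name MC3T3-E1, an osteoblastic cell line, whereas the methods name cultured calvarial cells, and neither states the genotype or that the replicates came from separate cultures. The p values therefore measure only the spread between these libraries, which may be technical. Levels are given as RPKM (read counts divided by gene length and by library depth), which can be compared between genes.

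Interferons bind receptors that activate the kinases *Jak1*, *Jak2* and *Tyk2*. Type I interferon leads to a complex that contains *Stat2* and *Irf9* and binds the interferon-stimulated response element (ISRE) in promoters, and interferon-γ acts on promoters through the gamma-activated site (GAS). The genes turned on in this way sense foreign nucleic acids, degrade or sequester viral RNA, restrict intracellular pathogens and feed back on the pathway. In bone, interferon-β and interferon-γ are known to restrain osteoclast formation, and both macrophages and stromal cells express this program.

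The promoters show where the set shares sequence. RefSeq promoter windows of 300 bases around the start site (build GRCm38.p6) were matched for 30 of the 42 members. The ISRE core GAAANNGAA was present on either strand in 20 of the 30 (66.7%), against 9.8% of the 27025 genes with such a window. The GAS core TTCNNNGAA, which reads the same on both strands, was present in 8 of the 30 (26.7%), against 9.6%. Of the tested members with a window, 17 held the ISRE core, of which 11 were lower with LAMZ at day 7 and 9 at day 14. Another 9 lacked it, of which 4 and 0 were lower, beside 8.49% and 16.0% of all tested genes. Many of the 17, among them *Ifit3*, *Oas1a*, *Trim30a* and *Gbp7*, were tested only through their control libraries. Of the 9, *Oasl2* and *Xaf1* were. Such selection favors lower values with LAMZ, so these counts cannot link the core to the change. These matches are descriptions and do not show binding. The stretches below were printed because they carry the ISRE core in 3 copies (*Isg15*, *Ifit1*, *Ifit3*) or beside a GAS core (*Igtp*), or the GAS core without the ISRE (*Irf1*, *Isg20*). Capitals mark the matched letters, and adjoining or overlapping matches run together. *Isg15* lies on the minus strand and the others on the plus strand, at chr4:156200856-156200916, chr19:34640760-34640833, chr19:34583354-34583455, chr11:58199491-58199550, chr11:53769904-53769952 and chr7:78913331-78913379, all upstream of the RefSeq start site.
*Isg15*: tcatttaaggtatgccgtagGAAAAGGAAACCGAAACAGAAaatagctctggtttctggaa
*Ifit1*: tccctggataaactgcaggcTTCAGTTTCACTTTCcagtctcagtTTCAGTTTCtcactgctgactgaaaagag
*Ifit3*: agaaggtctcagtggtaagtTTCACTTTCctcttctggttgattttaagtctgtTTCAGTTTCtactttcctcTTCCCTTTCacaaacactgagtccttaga
*Igtp*: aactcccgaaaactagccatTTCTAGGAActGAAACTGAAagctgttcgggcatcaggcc
*Irf1*: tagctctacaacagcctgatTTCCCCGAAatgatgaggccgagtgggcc
*Isg20*: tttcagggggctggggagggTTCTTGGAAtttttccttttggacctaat

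The libraries held 3463553 to 5832074 mapped reads, as recovered from the steps between low RPKM values, and the 42 members together held 1085 to 4318 reads per library. Defining markers did not match an osteoblastic line alone. Of 17 macrophage and leukocyte markers, all 17 had reads in control libraries, and their summed level was 482.5 and 636.9 RPKM in day 7 control, 9.482 and 7.647 in day 7 LAMZ, 1216 and 1232 in day 14 control and 7.545 and 8.194 in day 14 LAMZ. *C1qa*, *C1qb*, *C1qc*, *Tyrobp*, *Laptm5* and *Ctss* were at 0 in all 4 LAMZ libraries. Of the 16 of these markers that were tested, 14 were lower with LAMZ at day 7 (8.49% of all tested genes were) and 15 at day 14 (16.0%). All but *Lyz2* were tested only through control libraries, a selection that favors lower values with LAMZ. The osteoblastic markers *Col1a1*, *Sp7*, *Alpl* and *Spp1* were present in every library. On each day 7 of 10 osteoblastic markers were higher with LAMZ, beside 4.35% and 6.96% of all tested genes at day 7 and day 14. Of the other markers, 0 of 7 lymphoid and 1 of 6 endothelial markers (*Tek*) reached the tested range. *Tek*, also tested only through control libraries, was lower with LAMZ, with log2 fold changes of −1.14 at day 7 and −0.91 at day 14. In such bulk samples, fewer cells of a type and less RNA per cell cannot be told apart.

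Most interferon-stimulated genes had lower levels with LAMZ on both days. At day 7, both LAMZ libraries lay below both control libraries for 38 of the 42 members, and at day 14 for 38 of the 42, with 35 doing so on both days. The exceptions, in which the groups overlapped or turned, were *Mx1*, *Mx2*, *Isg20* and *Irgm1* at day 7 and *Oas3*, *Ifi204*, *Isg20* and *Ifi44* at day 14. Among all tested genes, 35.9% lay below at day 7 and 44.2% at day 14, beside 32 and 33 of the 34 tested members. The summed level of the members was 175.5 and 358.5 RPKM in day 7 control, 83.7 and 83.55 in day 7 LAMZ, 300.9 and 208.8 in day 14 control and 137.2 and 130.3 in day 14 LAMZ. The heat map of all members shows the LAMZ columns darker than the control columns of the same day in every role group, with day 7 control replicate 2 the brightest column.

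**Figure D1:**
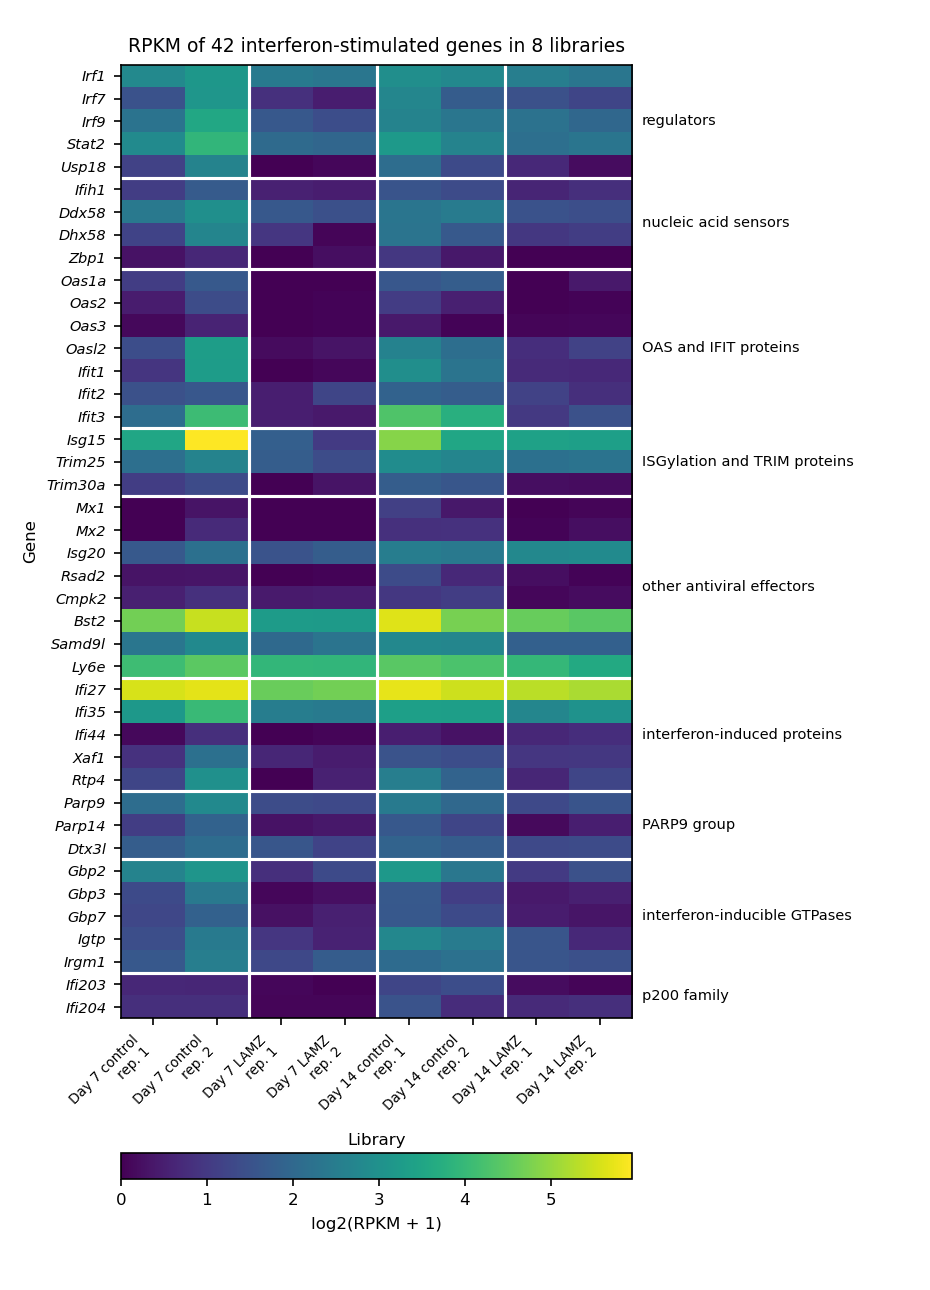
Level of each of the 42 interferon-stimulated genes (rows, grouped by role) in each of the 8 libraries (columns), as log2(RPKM + 1), brighter meaning higher. *Ifi27*, *Bst2*, *Ly6e* and *Isg15* are the brightest rows, and most rows are darker in the LAMZ libraries than in the control libraries of the same day.

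Changes were tested with limma on log2(RPKM + 1), a scale that understates the change of genes near or below 1 RPKM, and a gene was called at an adjusted p under 0.05 over all 12514 tested genes. Of the 42 members, 34 reached 1 RPKM in at least 2 libraries and were tested. At day 7, 19 of them were lower (8.49% of all tested genes were) and 0 were higher (4.35%). At day 14, 11 were lower (16.0%) and 0 were higher (6.96%). Before adjustment, 31 members were lower and 0 higher at a limma p under 0.05 at day 7, and 23 and 0 at day 14. The share of all tested genes at an unadjusted p under 0.05 was not counted. Such unadjusted counts, here and below, therefore do not set the members apart from other genes. The 7 members called on both days were *Ddx58*, *Oas1a*, *Ifit3*, *Trim30a*, *Parp14*, *Gbp2* and *Gbp7*, and 23 members were called on at least 1 day. Of these 7, all but *Ddx58* and *Gbp2* were tested only through control libraries. The share of all tested genes called on both days was not counted.

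Of the 34 tested members, 16 reached the tested range only through control libraries, a selection that favors lower values with LAMZ. Among the other 18, 11 were lower at day 7 and 4 at day 14, beside 7.57% and 14.5% of the 11193 genes that likewise reached 1 RPKM in at least 2 LAMZ libraries. The day 14 count of these 18 was thus close to the share over such genes, and the other 7 members called at day 14 were tested only through control libraries. Without the filter on low values, all 42 members could be tested, and 6 were lower at day 7 (2.02% of 29944 genes) and 9 at day 14 (5.20%). Over all 42, the median log2 fold change was −1.03 at day 7 and −0.81 at day 14, beside 0 and −0.04 over all genes in the same unfiltered fit. Leaving out 1 library left 1 in its group, and calls over all genes at day 7 fell in each such fit. The median log2 fold change of the 34 tested members at day 7 was −1.14 with all libraries. It was −0.76 without day 7 control replicate 2 and −1.54 without day 7 control replicate 1. Without day 7 LAMZ replicates 1 and 2 it was −1.16 and −1.09. The day 7 count of called members moved further than this median. Calls over all genes changed in these fits as well. Counts with 1 library left out, on either day, therefore do not set the members apart from other genes. It was 5 without day 7 control replicate 2 (*Ddx58*, *Ifit3*, *Bst2*, *Ifi27* and *Ifi35*), 28 without day 7 control replicate 1, 2 without day 7 LAMZ replicate 1 (*Ddx58* and *Ifi27*) and 3 without day 7 LAMZ replicate 2 (*Trim30a*, *Gbp2* and *Ifi27*). It was also 12 without either day 14 LAMZ library. The day 14 count was 5 without day 14 control replicate 1 (*Ddx58*, *Oas1a*, *Trim30a*, *Samd9l* and *Ifi203*), 7 without day 14 control replicate 2, 6 and 5 without day 14 LAMZ replicates 1 and 2, and 22 without either day 7 control library. The day 14 median of the tested members was −0.86 with all libraries, beside −0.15 over all tested genes. It was −0.65 without day 14 control replicate 1 and −1.06 without day 14 control replicate 2, beside −0.20 and −0.10 over all tested genes. Every tested member kept the sign of its change in all of these fits.

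The regulators of the response were lower at day 7, with 4 of 5 called (8.49% of all tested genes were called lower). At day 14, 0 of 5 were called (16.0%), and 2 were lower at an unadjusted p under 0.05. Of the regulators, *Usp18* was tested only through control libraries. *Stat2*, a subunit of the complex that binds the ISRE, was at 6.22 and 14.1 RPKM in the day 7 control libraries and 3.17 and 2.92 in the day 7 LAMZ libraries (log2 fold change −1.37 ± 0.32, limma adjusted p = 0.0298). At day 14 *Stat2* was at 8.23 and 5.34 RPKM in control and 3.5 and 3.97 with LAMZ (log2 fold change −0.69 ± 0.32, limma adjusted p = 0.16). The LAMZ libraries lay below the control libraries on both days, and their replicates were much closer to each other than those of the day 7 control. *Irf9*, the DNA-binding subunit of that complex, was at 3.79 and 10.9 RPKM in control and 2.09 and 1.67 with LAMZ at day 7 (log2 fold change −1.40 ± 0.37, limma adjusted p = 0.0451), and at 5.36 and 4.02 in control and 3.72 and 2.97 with LAMZ at day 14 (log2 fold change −0.38 ± 0.37, limma adjusted p = 0.491). *Usp18*, which removes *Isg15* from proteins and dampens signaling at the type I receptor, was at 1.24 and 5.28 RPKM in control and 0 and 0.0688 with LAMZ at day 7, which is 0 and 1 read (log2 fold change −1.86 ± 0.47, limma adjusted p = 0.0402). At day 14 *Usp18* was at 3.34 and 1.51 RPKM in control and 0.615 and 0.147 with LAMZ (log2 fold change −1.28 ± 0.47, limma adjusted p = 0.0884). For both genes the groups were separate, but control replicate 2 was several times replicate 1 at day 7. *Irf1*, a transcription factor induced by interferon-γ, was at 6.0 and 7.84 RPKM in control and 4.36 and 4.01 with LAMZ at day 7 (log2 fold change −0.60 ± 0.15, limma adjusted p = 0.0393), and at 6.65 and 5.9 in control and 4.83 and 4.02 with LAMZ at day 14 (log2 fold change −0.43 ± 0.15, limma adjusted p = 0.0809). It was the least variable regulator between replicates. *Irf7*, which drives type I interferon production, was at 1.84 and 7.74 RPKM in control and 0.776 and 0.381 with LAMZ at day 7 and did not pass the threshold (log2 fold change −1.67 ± 0.51, limma adjusted p = 0.0699), nor at day 14, at 5.67 and 2.34 in control and 1.76 and 1.36 with LAMZ (log2 fold change −0.89 ± 0.51, limma adjusted p = 0.245). *Irf9* shares exons with Rnf31 on the same strand, so that reads of the pair could be assigned to either.

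Among the sensors of nucleic acids, 1 of 3 tested members was lower on each day (8.49% and 16.0% of all tested genes were), and it was the same gene. *Ddx58*, which encodes the RNA sensor RIG-I, was at 4.33 and 6.8 RPKM in the day 7 control and 2.1 and 1.74 with LAMZ (log2 fold change −1.15 ± 0.19, limma adjusted p = 0.00776). Its day 14 levels were 3.94 and 4.58 RPKM in control and 1.82 and 1.69 with LAMZ (log2 fold change −0.93 ± 0.19, limma adjusted p = 0.0106). The 4 LAMZ libraries lay close together and below all 4 control libraries. *Ifih1*, which encodes the RNA sensor MDA5, was just outside the threshold. It was at 1.1 and 2.26 RPKM in control and 0.459 and 0.4 with LAMZ at day 7 (log2 fold change −0.87 ± 0.24, limma adjusted p = 0.0509), and at 1.94 and 1.57 in control and 0.525 and 0.753 with LAMZ at day 14 (log2 fold change −0.75 ± 0.24, limma adjusted p = 0.0577). *Dhx58*, which encodes the third member of this receptor family, had log2 fold changes of −1.44 (limma adjusted p = 0.0957) at day 7 and −0.95 (limma adjusted p = 0.2) at day 14. *Zbp1*, a sensor of Z-form nucleic acids, was not tested, and held 3 to 18 reads in the control libraries, 0 and 3 in the day 7 LAMZ libraries and 0 in both day 14 LAMZ libraries. The mean of its day 14 control libraries, on 18 and 5 reads, was 3.95 times a floor of 3 reads per library.

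The OAS and IFIT proteins, which respectively make the activator of RNase L and bind foreign RNA, included members that were at or near 0 with LAMZ. At day 7, 3 of 6 tested members were lower (8.49% of all tested genes were), and at day 14, 2 of 6 (16.0%). All of these calls were in members tested only through control libraries, a selection that favors lower values with LAMZ. *Ifit3* was at 3.34 and 15.9 RPKM in the day 7 control and 0.403 and 0.330 with LAMZ, and the control mean was 26.2 times the LAMZ mean (log2 fold change −2.65 ± 0.54, limma adjusted p = 0.0176). At day 14 it was at 18.9 and 12.4 RPKM in control and 0.983 and 1.76 with LAMZ, a ratio of 11.4 (log2 fold change −2.80 ± 0.54, limma adjusted p = 0.00824). The groups were far apart on both days, although *Ifit3* held only 3 reads in each day 7 LAMZ library. *Oas1a* was at 1.13 and 2.14 RPKM in the day 7 control and at 0 in both LAMZ libraries (log2 fold change −1.37 ± 0.26, limma adjusted p = 0.0126). The mean of these control libraries, on 8 and 14 reads, was 4.82 times a floor of 3 reads per library. At day 14 *Oas1a* was at 2.07 and 2.35 RPKM in control and 0 and 0.326 with LAMZ (log2 fold change −1.48 ± 0.26, limma adjusted p = 0.00531), on 21 and 20 reads in control and 0 and 3 with LAMZ. *Oasl2* was at 1.64 and 8.86 RPKM in the day 7 control and 0.121 and 0.247 with LAMZ (log2 fold change −2.11 ± 0.52, limma adjusted p = 0.0369), and at 5.23 and 3.42 in control and 0.707 and 1.27 with LAMZ at day 14 (log2 fold change −1.42 ± 0.52, limma adjusted p = 0.0883). *Ifit1* had a change of similar size but was not called, and its day 7 control libraries lay at 0.899 and 8.7 RPKM, beside 0 and 0.0723 with LAMZ (log2 fold change −2.05 ± 0.63, limma adjusted p = 0.0723). At day 14 *Ifit1* lay at 6.66 and 3.91 RPKM in control and 0.646 and 0.617 with LAMZ (log2 fold change −1.91 ± 0.63, limma adjusted p = 0.063). *Ifit2* had log2 fold changes of −0.66 (limma adjusted p = 0.141) at day 7 and −0.82 (limma adjusted p = 0.0543) at day 14, and *Oas2* of −0.89 (limma adjusted p = 0.151) and −0.77 (limma adjusted p = 0.161). *Oas3* was not tested, with 1 to 12 reads in control and 0 to 3 with LAMZ. *Ifit1*, *Ifit2* and *Ifit3* lie in 1 cluster on chromosome 19 (GRCm38, from 34550694 to 34650009), and *Oas1a*, *Oas2* and *Oas3* in another on chromosome 5 (from 120730333 to 120907521). These families have close copies with which reads may be shared, and how such reads were assigned is not stated.

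*Isg15*, the ubiquitin-like modifier that is attached to proteins in ISGylation, had the largest fitted change of all members at day 7. It was at 10.5 and 60.7 RPKM in the day 7 control and 2.48 and 1.02 with LAMZ, a ratio of means of 20.4 (log2 fold change −3.33 ± 0.73, limma adjusted p = 0.0235). At day 14 it was at 28.3 and 10.5 RPKM in control and 9.53 and 9.21 with LAMZ, a ratio of 2.07, and was not called (log2 fold change −0.83 ± 0.73, limma adjusted p = 0.454). The day 14 LAMZ libraries were close to the lower control library, and the call at day 7 was lost without day 7 control replicate 2 (log2 fold change −2.12, limma adjusted p = 0.0549), without day 7 LAMZ replicate 1 (−3.73, adjusted p = 0.0866) and without day 7 LAMZ replicate 2 (−2.94, adjusted p = 0.132). *Trim25*, the ubiquitin ligase that activates RIG-I, was at 3.5 and 5.32 RPKM in control and 2.36 and 1.6 with LAMZ at day 7 (log2 fold change −0.85 ± 0.19, limma adjusted p = 0.0274), and at 6.41 and 5.57 in control and 3.61 and 3.84 with LAMZ at day 14 (log2 fold change −0.56 ± 0.19, limma adjusted p = 0.0733). *Trim30a* was at 1.1 and 1.55 RPKM in control and 0 and 0.233 with LAMZ at day 7 (log2 fold change −1.06 ± 0.22, limma adjusted p = 0.0178), and at 2.36 and 1.99 in control and 0.167 and 0.149 with LAMZ at day 14 (log2 fold change −1.45 ± 0.22, limma adjusted p = 0.00271). Its LAMZ libraries held 0 to 5 reads and its control libraries 17 to 52. All 3 genes of this group were lower at day 7 (8.49% of all tested genes were), and *Trim30a* was at day 14 (16.0%). *Trim30a* was tested only through control libraries.

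Among the other antiviral effectors, 1 of 4 tested members was lower at day 7 (8.49% of all tested genes were) and 2 at day 14 (16.0%). *Bst2* (tetherin), which holds virions at the cell surface, was at 24.7 and 42.8 RPKM in the day 7 control and 8.57 and 8.5 with LAMZ (log2 fold change −1.81 ± 0.32, limma adjusted p = 0.0103). At day 14 *Bst2* was at 49.5 and 25.5 RPKM in control and 22.6 and 20.6 with LAMZ (log2 fold change −0.69 ± 0.32, limma adjusted p = 0.16). The day 7 groups were well apart, whereas the lower day 14 control library was close to the LAMZ libraries. *Samd9l*, a restriction factor for poxviruses, was at 4.01 and 6.12 RPKM in control and 3.07 and 3.86 with LAMZ at day 7 (log2 fold change −0.43 ± 0.18, limma adjusted p = 0.168), and at 5.9 and 5.67 in control and 2.53 and 2.53 with LAMZ at day 14 (log2 fold change −0.94 ± 0.18, limma adjusted p = 0.00798). *Ly6e*, a surface protein that interferes with virus entry, was at 16.1 and 21.0 RPKM in control and 14.3 and 14.1 with LAMZ at day 7 (log2 fold change −0.35 ± 0.17, limma adjusted p = 0.217), and at 20.5 and 18.1 in control and 14.6 and 11.3 with LAMZ at day 14 (log2 fold change −0.55 ± 0.17, limma adjusted p = 0.0486). It was among the most abundant members and changed least of those called at day 14. *Isg20*, an exonuclease, was the only tested member with a fitted change above 0 at day 14, at 2.14 and 3.57 RPKM in control and 1.89 and 2.37 with LAMZ at day 7 (log2 fold change −0.28 ± 0.19, limma adjusted p = 0.379), and at 4.71 and 4.28 in control and 5.81 and 6.17 with LAMZ at day 14 (log2 fold change 0.35 ± 0.19, limma adjusted p = 0.22). The groups overlapped at day 7, and the LAMZ libraries were the higher ones at day 14. *Mx1*, *Mx2*, *Rsad2* (viperin) and *Cmpk2*, which limit virus replication, were not tested, and held 0 to 36 reads in control libraries and 0 to 8 in LAMZ libraries. *Rsad2* and *Cmpk2* are neighbors on chromosome 12, and both held 1 to 4 reads in the day 14 LAMZ libraries and 12 to 36 in the control libraries.

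**Figure D2:**
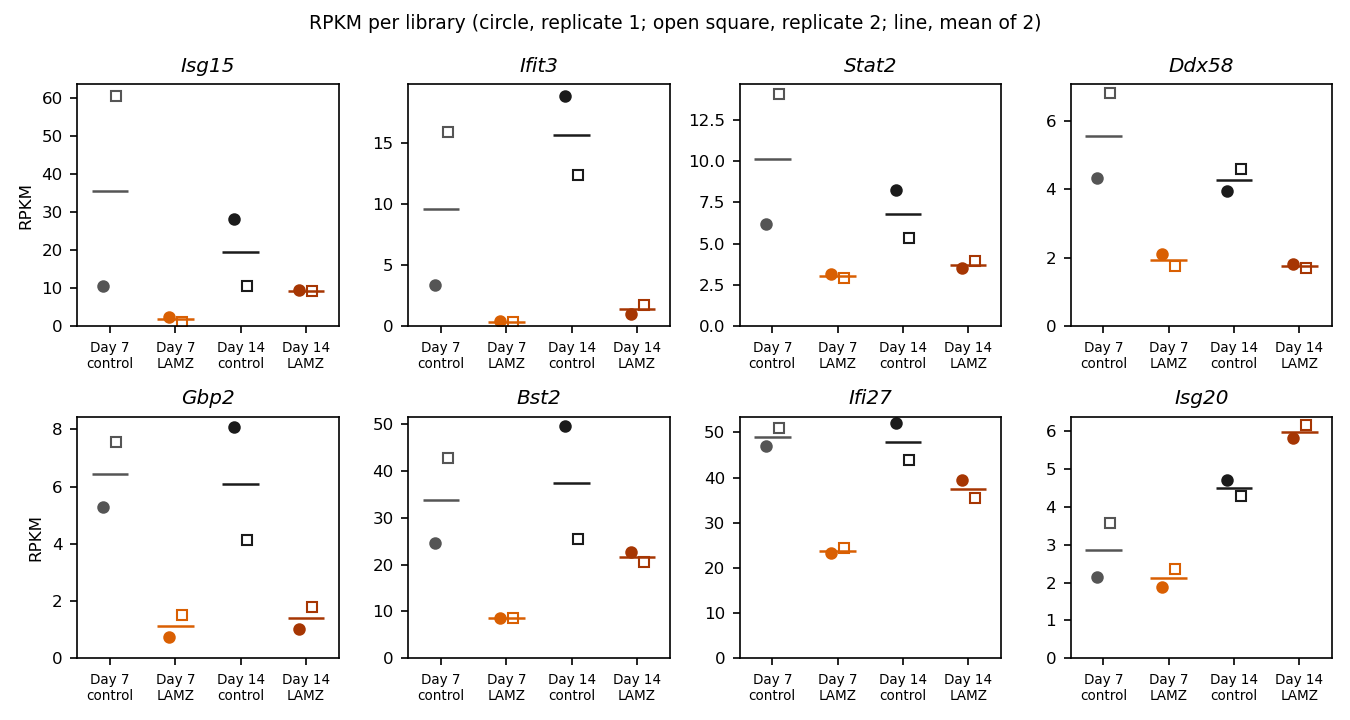
RPKM of 8 members in every library, with filled circles for replicate 1, open squares for replicate 2 and a line at the mean of the 2, each panel on its own linear axis from 0. Control libraries spread widely for *Isg15*, *Ifit3* and *Stat2* while the LAMZ libraries of a day nearly coincide, and *Isg20* is the panel in which the day 14 LAMZ libraries are highest.

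*Ifi27* had the highest mean level of the set and the smallest standard error. It was at 47.0 and 51.0 RPKM in the day 7 control and 23.2 and 24.5 with LAMZ, a ratio of means of 2.06 (log2 fold change −1.01 ± 0.13, limma adjusted p = 0.00243). Its day 14 levels were 52.0 and 43.9 RPKM in control and 39.5 and 35.5 with LAMZ, a ratio of 1.28 (log2 fold change −0.34 ± 0.13, limma adjusted p = 0.0889). The LAMZ libraries were below control on both days, and at day 7 the call held under every alternative tried. *Ifi35* was at 7.99 and 15.4 RPKM in control and 4.75 and 4.45 with LAMZ at day 7 (log2 fold change −1.12 ± 0.25, limma adjusted p = 0.0264), and at 9.17 and 9.09 in control and 5.66 and 7.12 with LAMZ at day 14 (log2 fold change −0.46 ± 0.25, limma adjusted p = 0.227). *Xaf1*, an antagonist of an apoptosis inhibitor, had log2 fold changes of −0.97 (limma adjusted p = 0.139) and −0.51 (limma adjusted p = 0.371), and *Rtp4*, a chaperone of membrane receptors, of −1.85 (limma adjusted p = 0.0573) and −1.28 (limma adjusted p = 0.12) at day 7 and day 14. In these interferon-induced proteins, 2 of 4 tested members were lower at day 7 (8.49% of all tested genes were). At day 14, 0 of 4 were called lower (16.0%), and 2 were lower at an unadjusted p under 0.05. *Ifi44* was not tested, and held 2 and 16 reads in day 7 control, 0 and 2 in day 7 LAMZ, 14 and 6 in day 14 control and 21 in each day 14 LAMZ library.

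The group around *Parp9* acts in ADP-ribosylation and DNA repair. Of its 3 members, 2 were lower at day 7 (8.49% of all tested genes were) and 1 at day 14 (16.0%). *Parp14* was tested only through control libraries. *Parp9* was at 3.38 and 6.1 RPKM in control and 1.59 and 1.5 with LAMZ at day 7 (log2 fold change −1.13 ± 0.24, limma adjusted p = 0.0214), and at 4.36 and 3.04 in control and 1.48 and 1.93 with LAMZ at day 14 (log2 fold change −0.79 ± 0.24, limma adjusted p = 0.0513). *Parp14* was at 1.11 and 2.64 RPKM in control and 0.227 and 0.309 with LAMZ at day 7 (log2 fold change −1.13 ± 0.30, limma adjusted p = 0.0442), and at 2.1 and 1.38 in control and 0.111 and 0.418 with LAMZ at day 14 (log2 fold change −1.11 ± 0.30, limma adjusted p = 0.0301). *Dtx3l*, the ubiquitin ligase that partners *Parp9*, had log2 fold changes of −0.53 (limma adjusted p = 0.108) and −0.47 (limma adjusted p = 0.109). All 3 lay below control in every LAMZ library of the same day. They are neighbors on chromosome 16 (GRCm38, from 35832874 to 35972605), where *Parp9* and *Dtx3l* overlap on opposite strands, and since use of the strand in counting is not stated, their reads cannot be fully told apart.

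The interferon-inducible GTPases coat the vacuoles of intracellular pathogens. On each day 3 of 5 members were lower, beside 8.49% and 16.0% of all tested genes at day 7 and day 14. Of those called, all but *Gbp2* were tested only through control libraries, a selection that favors lower values with LAMZ. *Gbp2* was at 5.27 and 7.57 RPKM in the day 7 control and 0.746 and 1.53 with LAMZ, a ratio of means of 5.66 (log2 fold change −1.80 ± 0.32, limma adjusted p = 0.00975). At day 14 it was at 8.07 and 4.13 RPKM in control and 1.02 and 1.79 with LAMZ, a ratio of 4.34 (log2 fold change −1.52 ± 0.32, limma adjusted p = 0.0114). The groups did not overlap on either day. *Gbp7* was at 1.42 and 2.62 RPKM in control and 0.209 and 0.444 with LAMZ at day 7 (log2 fold change −1.16 ± 0.25, limma adjusted p = 0.0208), and at 2.12 and 1.54 in control and 0.367 and 0.255 with LAMZ at day 14 (log2 fold change −1.10 ± 0.25, limma adjusted p = 0.0156). *Gbp3* was at 1.54 and 4.33 RPKM in control and 0.0718 and 0.176 with LAMZ at day 7 (log2 fold change −1.71 ± 0.35, limma adjusted p = 0.0179), and at 2.17 and 1.15 in control and 0.315 and 0.439 with LAMZ at day 14 (log2 fold change −0.92 ± 0.35, limma adjusted p = 0.0947). The Gbp genes lie side by side on chromosome 3 (GRCm38, from 142530342 to 142638008) and are close copies of each other. *Igtp*, an immunity-related GTPase, was at 1.71 and 4.43 RPKM in control and 0.928 and 0.475 with LAMZ at day 7 (log2 fold change −1.18 ± 0.38, limma adjusted p = 0.0803), and at 5.71 and 4.59 in control and 1.95 and 0.608 with LAMZ at day 14 (log2 fold change −1.49 ± 0.38, limma adjusted p = 0.0251). Its exons overlap those of Irgm2. *Irgm1* had log2 fold changes of −0.58 (limma adjusted p = 0.232) and −0.64 (limma adjusted p = 0.146), and its groups overlapped at day 7. Of the p200 family of DNA-binding proteins, *Ifi203* was at 0.593 and 0.560 RPKM in control and 0.0699 and 0 with LAMZ at day 7 (log2 fold change −0.61 ± 0.22, limma adjusted p = 0.119), and at 1.36 and 1.65 in control and 0.153 and 0.0611 with LAMZ at day 14 (log2 fold change −1.18 ± 0.22, limma adjusted p = 0.0077). *Ifi204* was not tested, and held 9 to 36 reads in control libraries, 1 in each day 7 LAMZ library and 13 in each day 14 LAMZ library. On the same strand, exons of *Ifi203* overlap Mndal, those of *Parp14* overlap Gm49730, those of *Gbp7* overlap Gm43802 and those of *Rtp4* overlap Gm45338. On the other strand, *Irf7* overlaps Phrf1, *Irf1* overlaps Gm17334, *Dhx58* overlaps Dhx58os, *Ifi35* overlaps Gm11626, *Usp18* overlaps Gm44148 and *Gbp2* overlaps Mir6381, so that the reads of these pairs could also be mixed.

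Whether the change with LAMZ differed between the days was tested for each member. The difference was called for 0 of 34 members by limma (0.623% of all tested genes were), and 4 had an unadjusted p under 0.05, all toward a higher level at day 14 relative to control. The smallest adjusted p was 0.145, for *Ifi27*. The largest fitted difference was that of *Isg15* (log2 fold change 2.50 ± 1.03, limma adjusted p = 0.285), and the change of *Bst2* differed by 1.12 (limma adjusted p = 0.279). With 2 libraries per group, such differences were within the spread, which does not show that they are absent. In control cultures, 0 of 34 members were called lower (2.40%) and 0 higher (2.46%) at day 14 than at day 7, with 2 at an unadjusted p under 0.05 and a smallest adjusted p of 0.132. Without day 7 control replicate 2, 3 were higher. Of the tested macrophage markers, 12 of 16 were higher at day 14 than at day 7 in control cultures. In LAMZ cultures, 3 of 34 members were higher at day 14 (5.10%) and 0 lower (9.26%), namely *Bst2* (log2 fold change 1.24 ± 0.32, limma adjusted p = 0.0394), *Ifi27* (log2 fold change 0.63 ± 0.13, limma adjusted p = 0.0163) and *Isg20* (log2 fold change 1.16 ± 0.19, limma adjusted p = 0.00716). *Isg15* moved from 2.48 and 1.02 to 9.53 and 9.21 RPKM between the days with LAMZ (log2 fold change 1.97 ± 0.73, limma adjusted p = 0.11). Leaving out 1 library moved the count in LAMZ cultures between 0 (without day 7 LAMZ replicate 1 or day 14 LAMZ replicate 2) and 5 (without either day 7 control library).

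**Figure D3:**
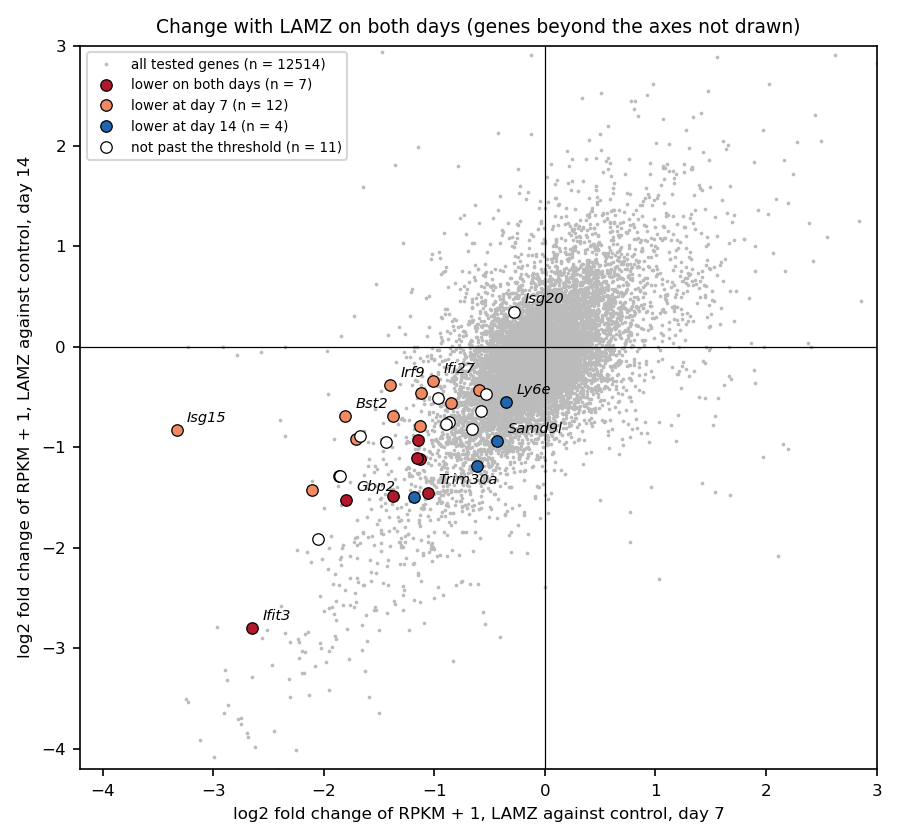
Log2 fold change of RPKM + 1 with LAMZ at day 7 (horizontal) against day 14 (vertical) for all tested genes (grey, n = 12514) and the 34 tested members (colored by the day on which they were called). All 34 members lie left of 0 at day 7 and 33 lie below 0 at day 14, with *Isg20* above 0 and *Isg15* farthest to the left.

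The control libraries differed from each other in the members. At day 7, 33 of 34 tested members were higher in control replicate 2 than in replicate 1, with a median ratio of 1.99 (0.943 to 9.68), beside a median of 0.947 over all tested genes. The ratio exceeded 1.5, a limit chosen after the values were seen, for 26 of the 34 members and for 8.49% of all tested genes. It was 9.68 for *Ifit1*, 5.77 for *Isg15*, 5.40 for *Oasl2* and 5.05 for *Rtp4*, and 1.08 for *Ifi27*. At day 14 the ratio of replicate 1 to replicate 2 had a median of 1.29 and a highest value of 2.69 (*Isg15*), beside 0.916 over all tested genes. There, 30 of 34 members were higher in replicate 1, and the ratio exceeded 1.5 for 14 of the 34 and for 6.05% of all tested genes. The summed macrophage markers were 636.9 against 482.5 RPKM in day 7 control replicates 2 and 1, and 1216 against 1232 in day 14 control replicates 1 and 2. Of the 16 tested macrophage markers, 14 were higher in day 7 control replicate 2 than in replicate 1, beside 41.4% of all tested genes. At day 14, 12 of them were higher in control replicate 1 than in replicate 2, beside 33.6%. Of the 10 osteoblastic markers, 10 were higher in day 7 control replicate 2 and 4 in day 14 control replicate 1. These ratios exceeded 1.5 for 6 and 2 of the macrophage markers and for 3 and 0 of the osteoblastic markers at day 7 and day 14. *Lyz2*, which held more than the other markers together, was at 695 and 789 RPKM in day 14 control replicates 1 and 2. What made these libraries differ was not tested.

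**Figure D4:**
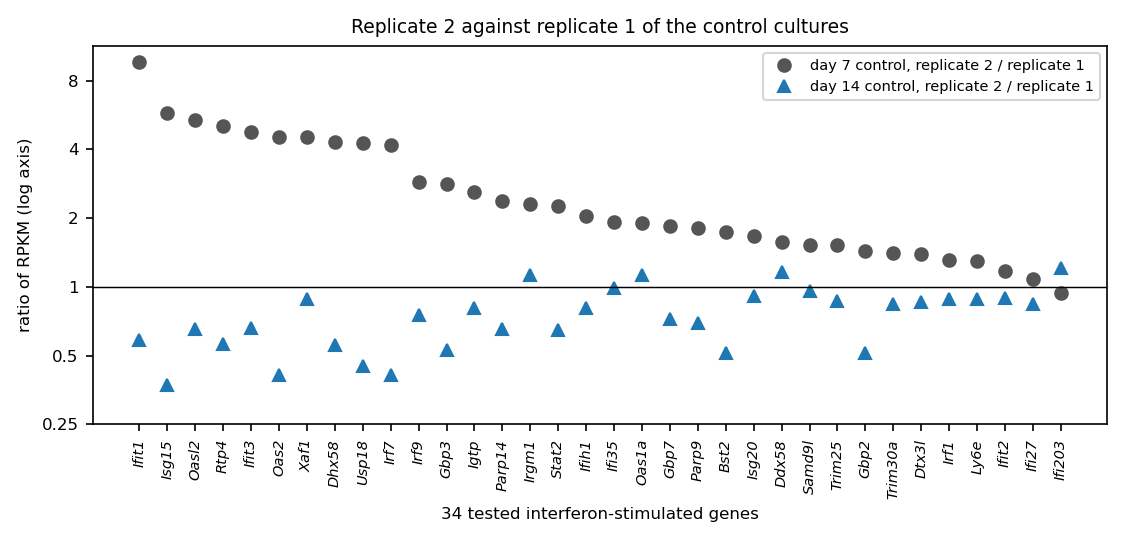
Ratio of RPKM in control replicate 2 to replicate 1 (log axis) for the 34 tested members, ordered by the day 7 ratio, with circles for day 7 and triangles for day 14. Nearly all circles lie above 1 and most triangles below it, and *Ifit1* and *Isg15* have the highest day 7 ratios.

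The other genes of the interferon pathway, 35 that were listed by function, had smaller median changes than the members. Of the 24 tested, 6 were lower at day 7 (8.49% of all tested genes were) and 11 at day 14 (16.0%). On either day 0 were higher (4.35% and 6.96%). Their median log2 fold change was −0.28 at day 7 and −0.36 at day 14, beside −0.08 and −0.15 over all tested genes. The genes called on both days were *Tlr3*, *Jak1* and *Ifngr1*. *Tlr3*, an endosomal RNA sensor, had log2 fold changes of −0.79 (limma adjusted p = 0.0382) and −0.69 (limma adjusted p = 0.0413). It was tested only through control libraries, a selection that favors lower values with LAMZ, and held 4 to 19 reads in LAMZ libraries. *Jak1*, a kinase of the receptors, had changes of −0.64 (limma adjusted p = 0.0149) and −0.60 (limma adjusted p = 0.011), and *Ifngr1*, a chain of the interferon-γ receptor, of −0.55 (limma adjusted p = 0.046) and −0.51 (limma adjusted p = 0.0402). Of the chains of the type I receptor, *Ifnar1* was at 10.7 and 11.7 RPKM in control and 9.73 and 8.75 with LAMZ at day 7 (log2 fold change −0.26 ± 0.11, limma adjusted p = 0.18), and at 11.0 and 11.1 in control and 7.64 and 7.56 with LAMZ at day 14 (log2 fold change −0.49 ± 0.11, limma adjusted p = 0.0172). *Ifnar2* stayed between 6.64 and 8.44 RPKM in all 8 libraries and had log2 fold changes of −0.06 (limma adjusted p = 0.813) and −0.12 (limma adjusted p = 0.515). By function, receptors and kinases were lower in 3 and 4 of 7 at day 7 and day 14, STAT and IRF factors in 1 and 1 of 4, sensing and induction in 1 and 5 of 8, and inhibitors in 1 and 1 of 5. The interferon genes themselves were not tested, since 0 of 8 reached the tested range. *Ifna2*, *Ifna5* and *Ifng* were at 0 in all libraries, and *Ifnb1* had reads only in day 7 control replicate 1 (0.707 RPKM) and day 14 LAMZ replicate 1 (0.229 RPKM). At this depth, interferon transcripts were not detectable beyond a few reads.

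The summed levels were set beside those of the macrophage list, since that list fell in the same libraries. From control to LAMZ, the summed macrophage markers went from between 482.5 and 1232 RPKM to between 7.545 and 9.482, and the summed members from between 175.5 and 358.5 to between 83.55 and 137.2. In the LAMZ libraries, where *C1qa*, *C1qb*, *C1qc*, *Tyrobp*, *Laptm5* and *Ctss* were at 0, *Ifi27* was at 23.2 to 39.5 RPKM, *Ly6e* at 11.3 to 14.6 and *Bst2* at 8.5 to 22.6. The same libraries held *Lyz2*, a macrophage marker, at 5.29 to 8.2 RPKM (34 to 46 reads), and 0 to 3 reads of *Oas1a*, 0 to 1 of *Oas2* and of *Mx1* and 0 to 10 of *Usp18*. The members thus ranged there from 0 to levels above that of *Lyz2*. Of the 34 tested members, 18 passed the filter on low values through the LAMZ libraries alone, and of the 16 tested macrophage markers 1 did. Neither levels of different genes nor passage of the filter can show what part the macrophage markers had in the change of the members. That part was not tested.

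**Figure D5:**
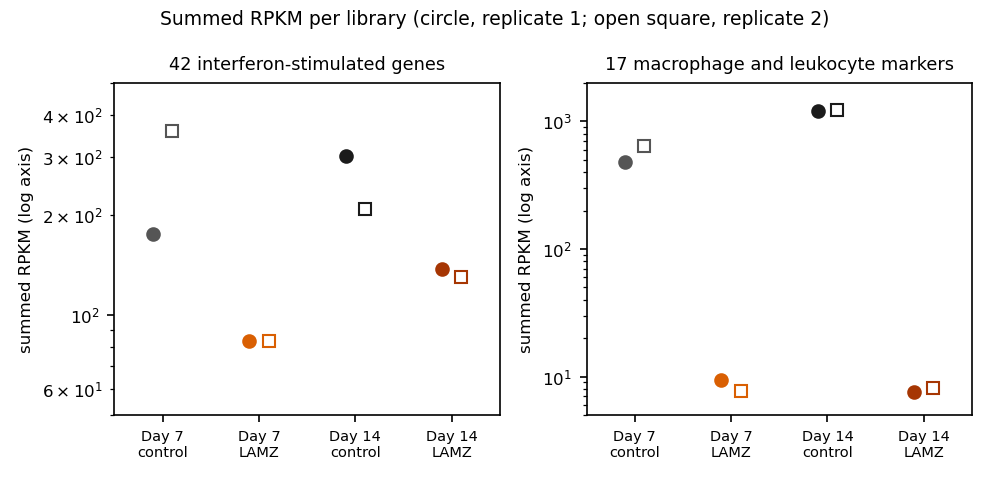
Summed RPKM of the 42 members (left) and of the 17 macrophage and leukocyte markers (right) in each library on log axes, with circles for replicate 1 and open squares for replicate 2. The marker sum is between 7.545 and 9.482 in the 4 LAMZ libraries, and the member sum is at 83.55 or above. In these libraries *Ifi27* alone is at 23.2 to 39.5 RPKM, and 16 of the 34 tested members do not reach 1 RPKM in at least 2 of them.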

How the data were processed

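Total RNA was sequenced on an Ion Proton. The authors used CLC Genomics Workbench (version not given in the sources used here) to make the gene values, and the labels name genome build mm10. The deposited values are RPKM per gene symbol and library, scaled within each library; use of the strand and scaling between libraries are not stated. The header of one table, that of day 7 LAMZ replicate 1, did not match its label, and its group was taken from the sample record. In each table, 4 entries with symbols turned into repeated dates were dropped, which left 51822.

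Groups came from the sample labels. Values were transformed to log2(RPKM + 1), genes with at least 1 RPKM in at least 2 libraries were fitted as 4 groups without covariates in limma 3.58.1 (R 4.3.3) with a mean-variance trend (4 residual degrees of freedom), and p values were adjusted by Benjamini-Hochberg over all tested genes. RPKM is not a count, so count models were not used. Fold changes are given ± SE. The members and the pathway and marker lists were chosen with earlier results of these data known; no p value was adjusted over the members alone, and no set test was run. Members past the threshold on either day and the 4 with the highest mean level are given library by library, and others by counts and ranges or their fold changes. Of the pathway genes, those past the threshold on both days, both type I receptor chains and the interferon genes are named; 1 item is not reported here and was left out of the counts of the pathway list. *Ifit1*, *Ifih1*, *Irf7* and *Isg20*, outside this rule, were given library values after these were seen.

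Depth was recovered as the number of mapped reads at which low RPKM values become whole reads with GENCODE M21 gene lengths (GRCm38). Between 96.3% and 97.2% of 880 to 1526 values per library came out whole within 0.03. Of 27 members with a library under 15 reads, 23 came out whole in this way; reads of *Irf7*, *Oas3*, *Oasl2* and *Mx1* are approximate. A floor of 3 reads covers counting error only. Coordinates are those of GENCODE M21, and promoter sequences those of RefSeq GRCm38.p6. The scripts were tested on simulated data. Alternatives were other pseudocounts, filters, scalings, a replicate block, the 4 libraries of a comparison alone and leaving out each library.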

Additional observations from a re-analysis of the deposited data

How the results depend on the processing

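All 34 tested members kept the sign of their change with LAMZ on both days under all alternatives run, and 0 were called higher in any of them. Counts of called members did depend on the processing, and so did calls over all tested genes. With the 4 libraries of a comparison alone, 405 of all tested genes were lower at day 7 and 1677 at day 14. In the main fit these were 1063 and 2007. At day 7, 19 members were lower, against 6 without the filter on low values, 9 with quantile normalization, 12 with median centring and 3 with the 4 libraries of the comparison alone. Rescaling to the same summed RPKM gave 29 and pseudocounts of 0.1 and 5 gave 23 and 13. Leaving out 1 library gave 2 to 28. At day 14, 11 members were lower, against 18 with the 4 libraries alone, 27 after rescaling to the same sum and 5 to 22 when 1 library was left out. Between the days, the count higher in control cultures was 0 to 3 and that in LAMZ cultures 0 to 5 when 1 library was left out, and 5 in LAMZ cultures with the 4 libraries alone. The difference of the LAMZ change between the days was called for 0 members in every alternative. The calls kept under all 16 alternatives were *Ifi27* at day 7 and *Oas1a*, *Trim30a* and *Samd9l* at day 14. Of these, *Oas1a* and *Trim30a* were tested only through control libraries, a selection that favors lower values with LAMZ. All alternatives but that without the filter share this selection. The cause of the other shifts was not tested, beyond the fewer libraries or the larger number of genes tested where the alternative itself brings these.

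Scaling moved the whole table. The median of all tested genes was −0.08 and −0.15 at day 7 and day 14, and −0.31 and −0.43 after rescaling to the same sum. Relative to it, the median of the members was −1.01 to −1.06 at day 7 and −0.71 to −0.73 at day 14 over the 4 scalings. Calls over all genes at day 7 were 1063 lower and 544 higher, against 745 and 857 with median centring, 808 and 679 with quantile normalization and 3280 and 312 after rescaling to the same sum. At day 14 they were 2007 and 871, against 1249 and 1608, 1394 and 1280, and 5323 and 473.

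Same-numbered libraries share only a number, and the pairing was not borne out, since their deviations from the group means correlated at −0.0342 to 0.0776 between groups. With the replicate block, 15 members were lower at day 7 (without *Irf1*, *Irf9*, *Usp18* and *Parp14*) and 10 at day 14 (without *Ly6e*).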
